A study of Mus musculus with 2 samples.

Results

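Wnt-low arterial endothelium (Wnt-low AE) is the arterial lining of the aortic region whose cells hold few transcripts of Wnt target genes. Its members were all cells to which the deposited cell table gives the class of Wnt-low endothelium in its arterial form, and they numbered 820 of the 8405 cells of the series. Of these, 472 of 4451 cells came from the wild-type library and 348 of 3954 from the SP3-null library.

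The study set wild-type mouse embryos beside embryos lacking the transcription factor SP3 by single-cell RNA-seq of the aortic region at embryonic day 10.5, when blood clusters bud from the vessel wall. Both genotypes came from parents heterozygous for the Sp3 tm1Sus allele, of mixed C57Bl6/J and B6129SF1/J descent, and their cells were pooled by genotype and sorted as Ter119-, CD41 low or negative, and positive for CD31, CD144 and ESAM. One capture per pool was made with a Chromium 3' kit (version 3), which marks the 3' end of each transcript with a unique molecular identifier (UMI). The number of embryos behind a pool is not stated in the methods, and with 1 library per genotype the effects of genotype, pool and library cannot be told apart and nothing below was checked in a replicate.

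Arteries and veins acquire separate identities early in development, and in arterial cells Notch signalling and SOXF transcription factors keep genes such as the ephrin ligand gene Efnb2 active, whereas the nuclear receptor NR2F2 maintains venous fate. Wnt signals acting through beta-catenin add a further programme, best known from brain vessels, where they induce barrier transporters. In the aorta, arterial cells are thought to move through a conflux state and a pre-hemogenic state (pre-HE) before they become hemogenic endothelium (HE), from which the intra-aortic cluster cells (IAC) emerge. SP3 binds GC boxes, short GC-rich motifs found in many promoters, and it shares them with the related factor SP1.

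The Wnt-low AE cells held a median of 13336.5 UMIs and 3562 genes in the wild-type library and of 14195 UMIs and 3645.5 genes in the SP3-null library. Their UMIs summed to 7395166 and 5272880. These sums set the precision, and each level below is given as CPM, a gene's UMIs scaled to the same total in every class and library. Intervals are exact, at the 95% level, and cover counting error only. The median mitochondrial share was 5.67% and 5.31%. Of the classes compared with it, Wnt-high AE and Wnt-low venous endothelium (VE) were about as deep, while conflux AE was shallower, at 9258.5 and 8864 UMIs per cell. Cell barcodes present in both libraries numbered 5, and 1 of them belonged to a Wnt-low AE cell.

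Classes were assigned from the nearest neighbours of each cell on an expression map and from an arterial against venous module score that holds Efnb2, so the levels of markers and all comparisons between classes describe the classes, and neither is an independent check of the label. Efnb2 stood at 189.7 CPM (179.9 to 199.9) in wild-type and 203 CPM (190.9 to 215.5) in SP3-null Wnt-low AE, against 69.1 and 69.5 CPM in Wnt-low VE and 472 and 425 CPM in conflux AE. Gja4, the gene of the arterial gap junction protein connexin 37, stood at 236 and 209 CPM, against 23.8 and 16.2 CPM in Wnt-low VE and 1232 and 1249 CPM in conflux AE. By both genes the class stood above the veins and well below conflux AE. Sox17, a SOXF factor, separated the class from Wnt-low VE the least of these genes, with 129.9 and 128.8 CPM against 94.1 and 91.0 CPM. Wnt-high AE was higher in Sox17, at 169 and 174 CPM, and in Gja4, at 299 and 265 CPM, and lower in Efnb2, at 114 and 110.4 CPM. The plot of levels by class shows these genes beside a venous gene, a Wnt target gene and a gene that peaks in the class.

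**Figure D1:**
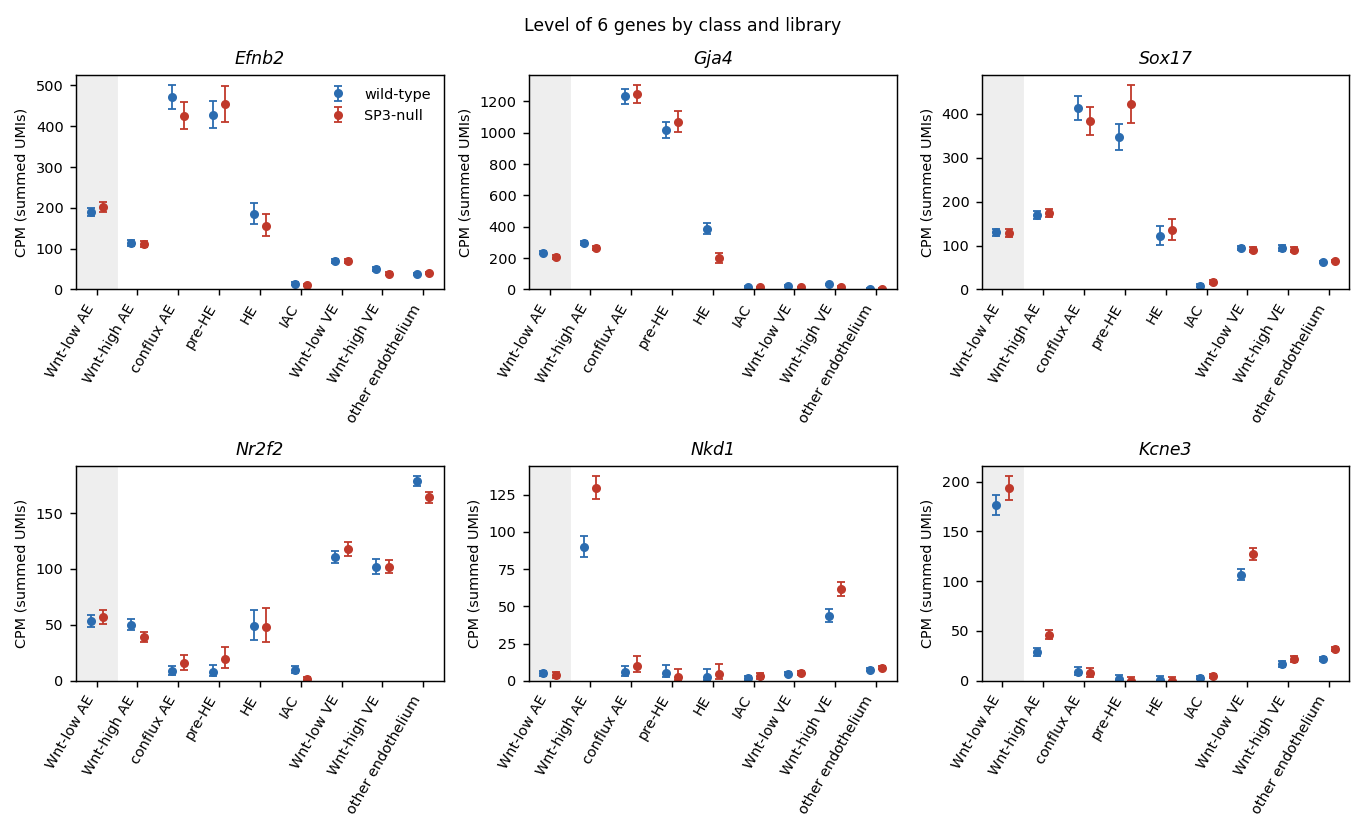
Level in CPM of summed UMIs of Efnb2, Gja4, Sox17, Nr2f2, Nkd1 and Kcne3 in 9 endothelial and blood classes. Blue points stand for the wild-type library and red points for the SP3-null library, bars are exact 95% Poisson intervals, and the grey band marks Wnt-low AE, which sits between Wnt-low VE and conflux AE for Efnb2 and holds the highest Kcne3, at 176 and 193 CPM.

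Because the question of the study concerns a factor that binds GC boxes, the 250 bases upstream of the start of the 2 arterial markers with a promoter entry are shown, each 5' to 3' on the gene's own strand, from RefSeq on the GRCm38.p6 build. Capitals mark GC boxes, GGGCGG or its reverse complement CCGCCC. The Efnb2 stretch spans chr8:8661243-8661492 and the Gja4 stretch chr4:127314040-127314289, both on the minus strand.
Efnb2: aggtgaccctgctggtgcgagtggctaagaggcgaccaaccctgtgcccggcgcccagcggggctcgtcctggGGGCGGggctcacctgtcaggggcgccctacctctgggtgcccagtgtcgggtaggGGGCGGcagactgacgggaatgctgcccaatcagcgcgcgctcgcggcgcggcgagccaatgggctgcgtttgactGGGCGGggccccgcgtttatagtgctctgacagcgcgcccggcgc
Gja4: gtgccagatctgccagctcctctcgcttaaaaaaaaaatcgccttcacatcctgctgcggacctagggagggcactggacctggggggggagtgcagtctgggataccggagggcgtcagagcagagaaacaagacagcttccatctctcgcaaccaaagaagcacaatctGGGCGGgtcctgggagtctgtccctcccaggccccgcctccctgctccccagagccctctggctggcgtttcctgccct
The Efnb2 stretch held 3 such motifs and the Gja4 stretch 1. Over the whole RefSeq table, 32.9% of 27025 genes carried a GC box in this window, and among the genes well measured in Wnt-low AE 3261 of 5050 did, or 64.6%.

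Seen cell by cell, arterial UMIs outnumbered venous ones in only part of the class. To set cells of different depth side by side, each was thinned to 5000 UMIs, which kept 394 wild-type and 301 SP3-null cells and left out 78 and 47. The study divided arterial from venous cells with a module score of 13 arterial against 5 venous genes, and in simple sums of those genes the arterial UMIs outnumbered the venous ones in 213 of 394 wild-type cells, or 54.1% (exact binomial interval 49.0% to 59.1%). Among SP3-null cells they did so in 165 of 301, or 54.8% (49.0% to 60.5%). Venous UMIs were the more numerous in 137 and 108 of the cells. The same count gave 95.7% and 89.6% in conflux AE, and 11.98% and 14.8% in Wnt-low VE. Wnt-high AE, at 47.7% and 55.8%, was as mixed. In single cells both sums were small, with medians of 5.5 arterial and 4 venous UMIs in wild-type cells and of 5 and 5 in SP3-null cells. The venous median was 4 in conflux AE and 5 in Wnt-low VE in each library, so chiefly the arterial sum separated these classes. The study's own score and its threshold were not computed here.

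A set of 10 arterial markers placed the class in the middle as well. The Wnt-low AE cells held a mean of 6.46 and 6.51 of their UMIs, between 2.13 and 2.01 in Wnt-low VE and 21.8 and 21.0 in conflux AE. A set of 7 venous markers held 5.53 and 5.70 UMIs, against 6.74 and 6.97 in Wnt-low VE and 4.89 and 5.30 in conflux AE. The sets of 5 and of 7 venous genes both hold Emcn, an abundant transcript of the class. No UMI of Efnb2, Gja4 or Sox17 was seen in 15.5% and 12.6% of the cells, and all 3 genes were seen in 15.5% and 14.95%. In Wnt-low VE the corresponding shares were 42.0% and 47.4% with none, and 1.24% and 1.36% with all 3.

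**Figure D2:**
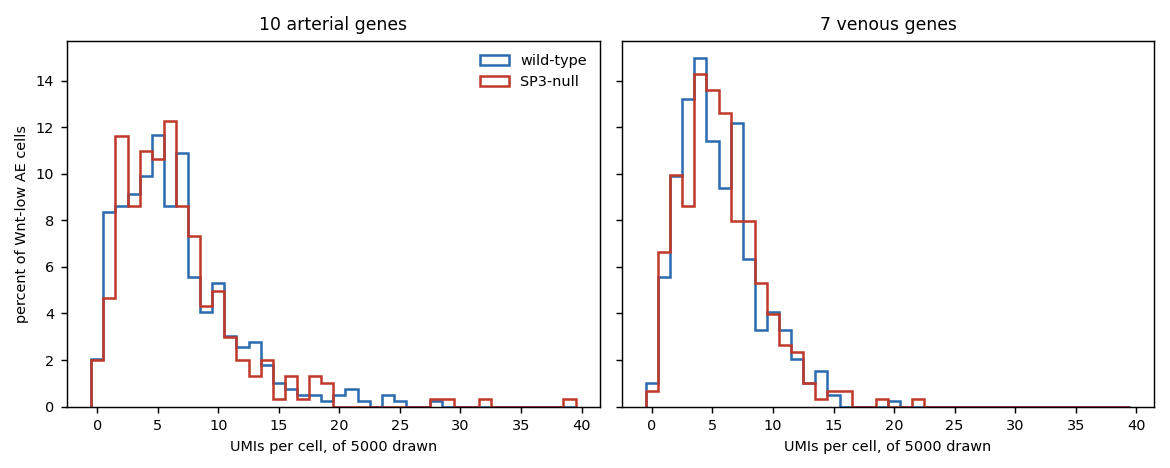
Percent of Wnt-low AE cells by the number of UMIs of 10 arterial genes (left) and 7 venous genes (right) among 5000 UMIs drawn per cell, for 394 wild-type (blue) and 301 SP3-null (red) cells. Both distributions sit at low numbers, with means of 6.46 and 6.51 arterial and 5.53 and 5.70 venous UMIs, and the arterial one has a longer tail.

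Single genes behaved alike in the thinned cells. Efnb2 was seen in 57.1% of wild-type and 61.8% of SP3-null Wnt-low AE cells, or 82.6% and 87.1% of all cells before thinning. Gja4 was seen in 51.3% and 43.9%, or 67.2% and 63.8% before thinning. Sox17 was seen in 41.6% and 49.2%, or 68.9% and 74.4% before thinning. In IAC, the cells of clusters attached to the arterial lumen, the shares after thinning were 6.35% and 3.88% for Efnb2, 10.3% and 8.74% for Gja4, and 3.97% and 7.77% for Sox17. IAC were sorted on the same endothelial proteins, so these shares are a low reference level and not a background without expression. Before thinning the IAC shares were 25% and 23.4% for Efnb2, 22.7% and 19.6% for Gja4, and 12.5% and 12.1% for Sox17. The IAC were then the deeper cells, with medians of 31041 and 30376 UMIs. Gja5, the gene of connexin 40 and a marker of mature arteries, was near that level, in 5.58% and 3.32% of cells against 3.97% and 0% of IAC (before thinning, 9.32% and 8.05% against 10.2% and 9.35%). Conflux AE held Gja5 in 70.7% and 62.3%. The venous gene Nr2f2 was present in 20.3% and 16.6% of Wnt-low AE cells, or 37.5% and 37.6% before thinning, and in 3.17% and 0% of thinned IAC. Aplnr, the apelin receptor gene of veins and sprouting vessels, was present in 36.0% and 29.2%, or 59.96% and 57.8% before thinning, and in 3.97% and 2.91% of thinned IAC. The class was thus arterial by its mean and carried venous transcripts in a sizeable share of its cells. Cdh5, the gene of the endothelial adhesion protein CD144 on which the cells were sorted, was seen in 94.9% and 96.0% of thinned cells.

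Transcripts of Wnt target genes were few, which the division into branches on the expression map entails. No UMI of the Wnt target set was seen in 73.6% and 72.1% of thinned Wnt-low AE cells, against 18.3% and 17.8% of Wnt-high AE cells. This was not particular to the class. The share was 71.8% and 74.5% in Wnt-low VE, 80.7% and 65.1% in conflux AE, and 84.3% and 83.8% in pre-HE. Nkd1, a feedback inhibitor of the pathway, stood at 4.87 and 3.603 CPM against 90.2 and 129.9 CPM in Wnt-high AE.

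Against Wnt-high AE, the arterial class on the Wnt-active branch, Wnt-low AE differed chiefly by what it lacked. Of 8425 genes with at least 200 UMIs, 52 (0.617%) were at least 2-fold higher and 180 (2.14%) at least 2-fold lower in both libraries. The genes lower by the widest margins included transcription factors and transporters known from brain vessels. Stra6, the receptor gene for retinol uptake, stood at 0.676 CPM in wild-type Wnt-low AE against 77.9 CPM in Wnt-high AE, and at 1.14 against 72.3 CPM in the SP3-null library. Foxq1, a forkhead factor induced by Wnt signals, stood at 1.62 against 136 CPM and at 4.36 against 161 CPM. Slc7a5, the gene of the large neutral amino acid transporter, stood at 6.36 against 139.6 CPM and at 4.55 against 162 CPM. The lipid transporter gene Mfsd2a, which guards the blood-brain barrier, gave 0 and 2 UMIs in Wnt-low AE against 149 and 264 in Wnt-high AE, and the proteoglycan gene Spock2 gave 3 and 0 against 357 and 446. Foxf2 (log2 ratios -6.23 and -5.98), Htra3 (-6.47 and -5.58), Igfbp7 (-4.74 and -4.91), Rassf9 (-4.64 and -5.03) and Ccdc141 (-4.54 and -5.51) were lower as well, as was Lsr, the gene of a receptor of tricellular junctions, with 3 and 0 UMIs against 101 and 120.

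The pathway lists showed the same split. Of 8 measured Wnt target genes, 7 were at least 2-fold lower in both libraries, with a median log2 ratio of -2.41 and -2.32, beside -0.02 and -0.0034 over all genes with at least 50 UMIs. Nkd1 had ratios of -4.21 and -5.17, and Axin2, which like Nkd1 feeds back on the pathway, had -2.53 and -2.57. Ccnd1, the gene of cyclin D1, was the exception, at 0.42 and 0.43. Of 13 brain-type barrier genes, 11 were lower and 8 at least 2-fold lower in both libraries, with a median of -2.99 and -3.66. The glucose transporter gene Slc2a1 was among the milder, at -0.84 and -0.77, and Abcb1a, the gene of the drug efflux pump P-glycoprotein, stood at -2.99 and -3.12. The Notch ligand gene Jag1 was also much lower, at -3.06 and -2.97, and Jag2 at -1.06 and -0.91, whereas the ligand gene Dll4 was higher, at 0.46 and 0.30.

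Genes higher in Wnt-low AE than in Wnt-high AE had smaller ratios. Hpgd, which encodes an enzyme that inactivates prostaglandins, stood at 50.7 against 6.69 CPM among wild-type and 45.5 against 4.62 CPM among SP3-null cells. Igfbp3, a secreted binding protein of insulin-like growth factors, was the most abundant of them, at 418 against 72.3 CPM and 454 against 92.4 CPM. Kcne3, a regulatory subunit of potassium channels, stood at 176 against 29.1 CPM and 193 against 46.1 CPM. Madcam1, an adhesion molecule for white blood cells, had log2 ratios of 3.25 and 2.78. Gpihbp1, which anchors lipoprotein lipase on capillaries, had 2.53 and 2.50, and the hormone gene Stc1 had 2.36 and 2.55. Ly6h (2.30 and 2.61), Gap43 (2.01 and 2.31), Tinagl1 (2.48 and 2.30), Ssu2 (2.14 and 2.65), Ccdc88c (2.09 and 2.17) and Cdc42ep2 (2.02 and 1.97) completed the 12 with the largest ratios. The arterial list itself was split, with 12 of 20 members higher and 7 lower in Wnt-low AE in both libraries and a median of 0.18 in each.

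Against Wnt-low VE, its venous counterpart on the same branch, Wnt-low AE held more of nearly every arterial transcript. Of 8799 genes, 85 (0.966%) were at least 2-fold higher and 30 (0.341%) at least 2-fold lower in both libraries. All 20 measured arterial genes were higher in both libraries and 11 at least 2-fold so, with medians of 1.27 and 1.45 beside 0.09 and 0.08 over all genes. Several of these genes, Efnb2, Nrp1, Dll4, Jag1, Jag2, Notch1 and Notch4 among them, entered the score that divided the classes, and their ratios follow from it. Cxcr4, the receptor gene for the chemokine CXCL12, stood at 22.9 against 1.26 CPM and 21.4 against 1.44 CPM. Unc5b, a guidance receptor gene of arterial and tip cells, stood at 104 against 18.7 CPM and 98.4 against 15.7 CPM. Hey1, a Notch target that represses venous genes, stood at 84.8 against 16.2 CPM and 90.7 against 13.0 CPM, and Mecom, a transcription factor gene needed by blood stem cells, at 103 against 24.2 CPM and 94.6 against 20.8 CPM. None of Gja4, Cxcr4, Unc5b, Hey1 and Mecom was part of the study's score. Esm1, an endothelial proteoglycan gene of tip cells, stood at 85.9 against 12.8 CPM and 89.9 against 9.84 CPM.

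Further genes in this direction were Sorbs2 (2.76 and 2.76), Ssu2 (2.56 and 2.94), Npr3 (2.14 and 2.17), Serpinf1 (2.12 and 2.22), Tifa (2.09 and 2.06) and Cdh13 (2.004 and 1.81), as log2 ratios in the wild-type and SP3-null library. The differences in the venous direction were smaller. Bmp4, a ligand gene of the BMP pathway, stood at 2.43 against 9.38 CPM and 1.90 against 9.93 CPM. Flrt2 had ratios of -2.07 and -1.98, Phgdh, an enzyme gene of serine synthesis, -1.83 and -1.80, and the transcription factor gene Tbx3 -1.93 and -1.47. Prl3b1, Gm13431, Nexmif, Tgm2, Npl, Tfec and Pdgfa had ratios between -2.12 and -1.38. Of 12 venous genes, 9 were lower in both libraries and 3 at least 2-fold lower, among them Nr2f2 (-1.07 and -1.05) and Nrp2 (-1.02 and -1.01). Of the basement membrane genes 13 of 13 were higher in Wnt-low AE in both libraries (medians 0.80 and 0.70), and of the guidance genes 17 of 20 (0.87 and 0.83). The medians over all genes were 0.09 and 0.08. For none of the class comparisons was the share of all genes that went one way in both libraries counted.

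Against conflux AE, the next stage towards hemogenic endothelium, Wnt-low AE held less of the arterial and more of the cell cycle programme. Of 7001 genes, 140 (2%) were at least 2-fold higher and 198 (2.83%) at least 2-fold lower in both libraries. With TMM factors in place of total UMIs these counts were 193 and 159, as that scaling shifted the median of all genes to 0.10 and 0.13. All 21 measured arterial genes were lower in Wnt-low AE, 16 of them at least 2-fold, with medians of -1.36 and -1.48 beside -0.03 and -0.02 over all genes. Gja5 stood at 11.9 against 377 CPM and, in the SP3-null library, at 9.48 against 356 CPM. Gata6, a transcription factor gene, stood at 2.70 against 70.0 CPM and 1.90 against 73.5 CPM. Edn1, the gene of the vasoconstrictor endothelin 1, stood at 3.38 against 101 CPM and 7.78 against 116 CPM. Tmem100, a target gene of BMP9 and BMP10 signalling, had log2 ratios of -4.49 and -4.67, and the contractile protein genes Tagln (-3.54 and -4.67) and Palld (-3.51 and -3.69) were lower too. Slc45a4, Prss23, Egfl8, Dmd, Igfbp7 and Serpinf1 had ratios between -4.21 and -3.14.

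In the other direction, Kcne3 stood at 176 against 8.92 CPM and 193 against 7.42 CPM. Aplnr stood at 116 against 9.86 CPM and 96.3 against 8.09 CPM, and Apln, the gene of its ligand apelin and a marker of sprouting tips, at 29.9 against 2.35 CPM and 26.4 against 3.37 CPM. Odc1, the rate-limiting enzyme gene of polyamine synthesis, stood at 183 against 18.8 CPM and 178 against 37.1 CPM. Abcc9, a subunit gene of potassium channels, had log2 ratios of 3.96 and 4.003, resting on 4 and 3 UMIs in conflux AE, and Gpr183, a chemotactic receptor gene, had 3.44 and 2.96. Lipt2, Pimreg, Samsn1, Fam167b, Cdkl1 and Hspa1b had ratios between 1.998 and 3.56. Venous genes were evenly divided. Of 11 measured, 5 were higher and 5 lower in Wnt-low AE in both libraries, with medians of 0.67 and -0.02, and 4 were at least 2-fold higher, among them Nr2f2 (2.65 and 1.87) and Nrp2 (2.38 and 1.90), whereas Dab2 was lower (-0.87 and -0.74).

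**Figure D3:**
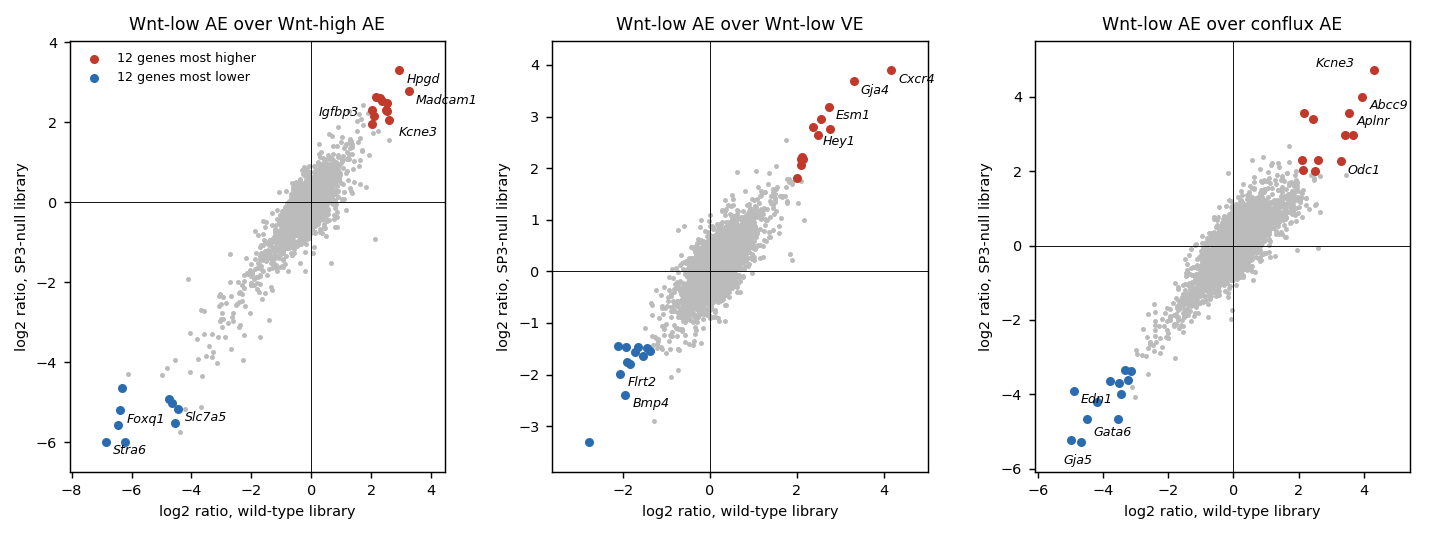
Log2 ratio of Wnt-low AE over Wnt-high AE (left), Wnt-low VE (middle) and conflux AE (right), in the wild-type library (horizontal axis) and the SP3-null library (vertical axis), with 1 grey point per gene. The 12 genes highest (red) and 12 lowest (blue) by the smaller of the 2 ratios are coloured, and genes with 0 UMIs in a class of 1 library are not drawn. The ratios of both libraries lie along the diagonal, from Stra6 at -6.85 and -5.99 to Hpgd at 2.92 and 3.30 in the left panel.

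The cell cycle set the class apart from conflux AE in particular. All 24 mitosis genes were higher in Wnt-low AE than in conflux AE in both libraries, 18 of them at least 2-fold. Their medians were 1.79 and 1.27, beside -0.03 and -0.02 over all genes. Top2a, a topoisomerase gene of dividing cells, was seen in 49.2% and 44.9% of thinned Wnt-low AE cells, or 61.7% and 56.03% before thinning, against 15.7% and 17.9% of thinned conflux AE cells. Mki67, the gene of the proliferation marker Ki-67, was seen in 38.3% and 33.2%, or 54.4% and 45.1% before thinning, against 10.0% and 11.3% in conflux AE. The summed mitosis level was 2952 and 2918 CPM in Wnt-low AE, 906 and 1249.9 CPM in conflux AE, 2284 and 2125 CPM in Wnt-high AE and 3087 and 3147 CPM in Wnt-low VE. All 24 mitosis genes were also higher than in Wnt-high AE, by medians of 0.35 and 0.48. S phase genes were higher than in conflux AE in 23 of 24 cases and lower than in Wnt-low VE in 24 of 24, the latter by medians of -0.29 and -0.44. Ribosomal protein genes were lower than in Wnt-low VE in 38 of 38 cases, by a median of -0.19 in each library. Against that class the medians over all genes were 0.09 and 0.08. How many of all genes went one way in both libraries was not counted, so these counts of members have no background share.

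Few transcripts peaked in Wnt-low AE by a wide margin. Of 6213 genes with at least 200 UMIs in the class, 355 in the wild-type library were highest there among the 9 classes. In the SP3-null library 358 were. In both libraries 159 were highest there, and 6 were so by at least 1.5-fold in both, which are named here after their values were seen. Such genes were not counted for the other classes. Spry4, a feedback inhibitor of growth factor signalling, stood at 30.02 and 25.4 CPM, 2.04 and 1.64 times the next class. Lbh, a transcriptional regulator, stood at 33.4 and 35.1 CPM, 1.70 and 2.08 times the next class. Col15a1, a basement membrane collagen gene, stood at 189 and 149 CPM, 1.57 and 1.74 times the next. Kcne3, Hpgd and Cdc42ep2 were the other 3. The next class was Wnt-low VE for these genes in both libraries, except for Col15a1 in the wild-type library, where it was conflux AE.

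Ranked by the ratio of variance to mean among the cells, the leading transcripts were mostly abundant ones. For a given relative spread this ratio rises with the mean, so it favours abundant genes and lies near 1 for sparse ones. Over 5235 genes with a mean of at least 0.1 UMI per thinned cell, the median ratio of variance to mean was 1.07 in each library, close to the value of 1 that counting alone gives. The genes with the highest ratios in both libraries were mitochondrially encoded ones, led by mt-Atp6 with 51.2 and 37.5, mt-Co2 with 37.9 and 29.8, and mt-Co3 with 34.8 and 28.6. A further 6 of the 15 highest were mitochondrial transcripts too, and Malat1 (22.9 and 25.9), a nuclear long RNA, and Gm42418 (10.3 and 17.7) were among them. The actin regulator Tmsb4x had 8.11 and 7.67, and Actb, the gene of beta-actin, 7.45 and 7.65. Xist, expressed from the inactive X chromosome of females, had 7.28 and 8.94 and was present in 34.0% and 36.2% of thinned cells. The 4 Y-linked genes had summed levels of 57.5 and 74.5 CPM, so both pools held embryos of both sexes. Meg3, a maternally expressed imprinted RNA, had 4.799 and 4.41. No arterial gene was among these 15, in a ranking that was not adjusted for level.

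Wnt-low AE made up a smaller share of the SP3-null than of the wild-type library. It held 10.6% of all wild-type cells (9.71% to 11.5%) and 8.80% of all SP3-null cells (7.94% to 9.73%), which differ by -1.80 percentage points (-3.08 to -0.519). Among the 3 arterial classes the difference was larger, from 41.9% (39.0% to 44.8%) to 32.6% (29.8% to 35.5%), or -9.27 points (-13.3 to -5.16). Wnt-high AE had 467 wild-type and 574 SP3-null cells. Set beside conflux AE alone or Wnt-low VE alone, the interval of the difference included 0. The class held 71.5% and 70.6% of Wnt-low AE and conflux AE cells (difference -0.927 points, -6.37 to 4.45). It held 35.2% and 34.0% of Wnt-low AE and VE cells (-1.24 points, -5.15 to 2.70). Only the latter share lies within the Wnt-low branch, since the paper derives conflux AE from both arterial branches. After leaving out cells with UMIs of blood, macrophage, neural, epithelial or mesenchymal genes other than Nes and Stmn2, the difference over all cells was -1.49 points (-3.01 to 0.0252). Shares here are shares of sorted cells, so the gate as well as the tissue sets them, and the intervals hold no spread between embryos.

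Sp3 itself was lower in SP3-null Wnt-low AE, with 356 and 192 UMIs, or 48.1 and 36.4 CPM, a log2 ratio of -0.40 (-0.66 to -0.15). All 8 other classes had ratios in the same direction, from -0.56 to -0.33. The kit reads the 3' end, and how the allele alters this end is not stated in the methods, so the level is no check of the genotype labels. Sp1, its closest relative, stood at 28.5 and 32.4 CPM (0.18, -0.11 to 0.48), and in thinned cells its ratio was 0.59.

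Between the genotypes most transcripts of the class differed little. Over 6213 genes with at least 200 UMIs the log2 ratio of SP3-null over wild-type had a median of -0.01, and the central 95% of genes lay between -0.42 and 0.34. Past a log2 ratio of 0.5 in size, 34 genes (0.547%) were higher and 84 (1.35%) lower in the SP3-null library. Thinned to equal depth the cells gave 181 and 311, of which 21 and 65 were among those genes, and weighted alike they gave 65 and 133. Of the 34, between 19 (HE) and 31 (the remaining endothelium) had a ratio above 0 in each of the 8 other classes, where 42.2% to 50.5% of all 6213 genes did. Of the 84, between 56 (IAC) and 70 (Wnt-high AE, Wnt-high VE and the remaining endothelium) had a ratio below 0, beside 49.5% to 57.8% of all genes. The classes of a genotype come from the same pool and library, so these are not separate observations.

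**Figure D4:**
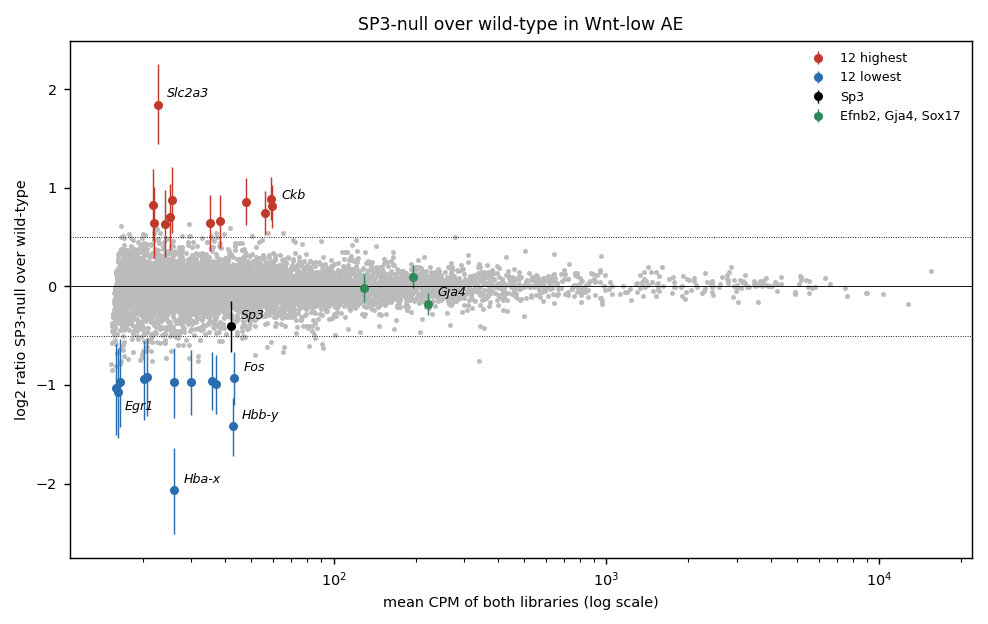
Log2 ratio of SP3-null over wild-type (vertical axis) against mean CPM (log axis) for 6213 genes in Wnt-low AE. Coloured are the 12 highest and 12 lowest genes, Sp3 and the 3 arterial markers, with exact 95% counting intervals, and dotted lines mark ratios of 0.5 and -0.5. Slc2a3, at 1.85, stands clear of the other genes, while the 3 arterial markers lie between -0.17 and 0.10.

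Slc2a3, the gene of the glucose transporter GLUT3, had the highest ratio. It gave 73 UMIs in 48 wild-type cells and 187 UMIs in 82 SP3-null cells, or 9.87 and 35.5 CPM, a log2 ratio of 1.85 (1.45 to 2.26). After thinning it was seen in 3.81% and 11.6% of cells, and before thinning in 10.2% and 23.6%. IAC held it in 16.7% and 17.5% of thinned cells, so no class that lacks it served as a background. All 8 other classes had ratios above 0, the lowest in IAC (0.01) and the highest in Wnt-low VE (1.93). Without the 5% of cells with the most Slc2a3 UMIs in each library the ratio was 2.32.

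The other genes higher in the SP3-null library differed by less than 2-fold among those with at least 200 UMIs. Egln3, a prolyl hydroxylase gene induced by low oxygen that marks HIF proteins for decay, stood at 18.0 and 33.0 CPM (0.88, 0.54 to 1.21). Ckb, the gene of brain-type creatine kinase, stood at 43.3 and 76.0 CPM (0.81, 0.60 to 1.03). H2afy2, which encodes a variant of histone H2A, stood at 33.8 and 61.4 CPM (0.86, 0.62 to 1.11). Ckb and H2afy2 were higher in all 8 other classes as well. Id2, an inhibitor of basic helix-loop-helix factors and a BMP target, stood at 41.9 and 70.2 CPM (0.74, 0.52 to 0.97). Gid4 (0.83), Pgs1 (0.71), Ptprf (0.65), Itm2a (0.64) and Gm13889 (0.63) followed, and Gm13889 was 0.26 in thinned cells. Rapgef4 (0.66, 0.39 to 0.93) lies 0.955 Mb from Sp3. Gm10036 (0.89) is annotated as a pseudogene, and since such loci can share reads with near-identical copies its level is uncertain.

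Among the lower genes the 2 embryonic globins came first. Hba-x stood at 42.1 and 10.1 CPM (-2.06, -2.51 to -1.64) and Hbb-y at 62.3 and 23.3 CPM (-1.42, -1.72 to -1.13). Their UMIs sat in few cells, with up to 91 Hba-x and 111 Hbb-y UMIs in 1 wild-type cell, and without the 5% of cells with the most erythroid UMIs in each library the ratios were -0.09 and -0.38. The summed erythroid level was 134 and 41.5 CPM in Wnt-low AE and 56.6 and 98.3 CPM in Wnt-high AE.

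Egr1, next in rank after the globins, was found in 62 wild-type and 26 SP3-null cells. The 5% of cells with the most Egr1 UMIs held 72.2% and 83.6% of them. Bik, Ripk1, Plpp2 and Clec1a were found in more cells than either globin, Bik for example in 192 wild-type and 88 SP3-null cells. Bik, which encodes a BH3-only inducer of apoptosis, stood at 49.4 and 24.8 CPM (-0.99, -1.29 to -0.70). Ripk1, a kinase gene that steers cells between survival and death downstream of tumour necrosis factor, stood at 34.6 and 17.6 CPM (-0.97, -1.33 to -0.63). Plpp2, a lipid phosphate phosphatase gene, stood at 39.8 and 20.3 CPM (-0.97, -1.30 to -0.65), and Clec1a, a C-type lectin gene of endothelium, at 47.5 and 24.5 CPM (-0.96, -1.26 to -0.66). These 4 genes, and Dhrs4 (26.6 and 13.8 CPM, -0.94), were lower in all 8 other classes too, and for Ripk1 and Plpp2 the counting interval lay below 0 in each of the 8. Ripk1 and Plpp2 kept ratios between -1.26 and -0.85 under every alternative tried. The lower genes also held Egr1 (-1.07), Fos (-0.93), 1110008P14Rik (-1.03), the histone gene Hist1h1d (-0.97) and the cytoskeletal linker gene Dst (-0.92).

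To set GC boxes side by side, promoters are shown for the 2 genes with the highest and the 2 with the lowest ratio among named genes that kept their direction in all 8 other classes and had an entry. They are the 250 bases upstream of the start in the RefSeq entry used, on GRCm38.p6, 5' to 3' on the gene's strand, with GC boxes in capitals. The stretch of Ripk1 spans chr13:34002113-34002362 (plus strand, the first of its 2 entries), that of Plpp2 chr10:79533788-79534037 (minus), that of H2afy2, listed under its newer symbol Macroh2a2, chr10:61783865-61784114 (minus), and that of Ckb chr12:111672339-111672588 (minus).
Ripk1: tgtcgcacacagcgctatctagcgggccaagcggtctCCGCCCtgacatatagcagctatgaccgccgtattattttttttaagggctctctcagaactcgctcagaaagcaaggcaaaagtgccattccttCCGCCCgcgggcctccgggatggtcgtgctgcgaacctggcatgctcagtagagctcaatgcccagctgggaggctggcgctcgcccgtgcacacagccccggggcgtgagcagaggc
Plpp2: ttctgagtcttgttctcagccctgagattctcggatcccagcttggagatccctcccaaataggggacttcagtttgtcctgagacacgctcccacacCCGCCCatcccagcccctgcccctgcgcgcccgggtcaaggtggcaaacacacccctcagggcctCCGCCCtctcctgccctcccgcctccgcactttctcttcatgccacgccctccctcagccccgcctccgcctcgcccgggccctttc
H2afy2: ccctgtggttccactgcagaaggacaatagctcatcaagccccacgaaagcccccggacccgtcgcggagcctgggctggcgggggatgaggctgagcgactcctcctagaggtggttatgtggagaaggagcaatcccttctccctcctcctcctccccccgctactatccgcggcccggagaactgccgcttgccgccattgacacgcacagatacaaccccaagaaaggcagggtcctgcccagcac
Ckb: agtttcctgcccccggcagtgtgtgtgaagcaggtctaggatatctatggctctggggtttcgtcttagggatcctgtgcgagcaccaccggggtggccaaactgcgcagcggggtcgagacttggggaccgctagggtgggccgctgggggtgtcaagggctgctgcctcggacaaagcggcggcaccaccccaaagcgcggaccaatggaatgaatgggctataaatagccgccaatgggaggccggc
The annotated Ripk1 gene begins at position 34002225, inside its window. This window is thus upstream of a later start only, and the later of its GC boxes lies within the annotated gene. The 2 lower genes held 2 GC boxes each, and the 2 higher genes held none in this window. This contrast did not extend to all genes past the fold. A GC box was found in 19 of 29 genes that were higher, or 65.5%, in 44 of 63 that were lower, or 69.8%, and in 64.6% of all well-measured genes of the class. Of the arterial list 11 of 16 promoters held one, of the hypoxia list 18 of 19 and of the HOX list 7 of 17. Promoter entries were found for 22 of 29 named genes, and Slc2a3, Gm10036, Gm13889, Egr1, Bik, Clec1a and Sox17 are named without one.

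The arterial list showed little difference between the libraries. Lists take genes with at least 50 UMIs, 9355 in all, of which 45.3% lay above and 54.7% below 0, 2% were past the fold on the higher side and 4.58% on the lower side. None of the 19 arterial members was past the fold, 7 lay above and 12 below 0, and their median was -0.02, equal to that of all 9355 genes. Their summed level was 2399 and 2409 CPM. Igfbp3 had 418 and 454 CPM (0.12, 0.04 to 0.20), the VEGF co-receptor gene Nrp1 320.3 and 335 CPM (0.07, -0.02 to 0.16), Efnb2 a ratio of 0.10 (-0.02 to 0.21) and Sox17 of -0.01 (-0.16 to 0.13). Gja4 was the 1 member whose interval lay below 0 (-0.17, -0.28 to -0.07). Without cells bearing markers of other types it was -0.34. It had the same ratio, -0.17, in Wnt-high AE but 0.02 in conflux AE. The other SOXF genes Sox18 (-0.07) and Sox7 (-0.09) had intervals that include 0.

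The signalling lists that bear on arterial fate had medians near that of all genes. Notch target genes had a median of 0.03 over 6 members, which turned to -0.0053 in thinned cells and to -0.03 without cells bearing markers of other types, among them Hey1 (84.8 and 90.7 CPM, 0.10) and Hes1 (66.1 and 66.9 CPM, 0.02). The receptor gene Notch1 stood at 202 and 199 CPM (-0.02, -0.13 to 0.10) and Dll4 at 64.4 and 61.6 CPM (-0.06, -0.27 to 0.14). Notch3 had the lowest ratio of that list, -0.77 (-1.65 to 0.06), on 43 and 18 UMIs. Venous genes had a median of 0.03 over 10 members, with Emcn, the endomucin gene, at 676 and 736 CPM (0.12) and Aplnr at 116 and 96.3 CPM (-0.27, -0.43 to -0.11). Wnt target genes had a median of -0.09 over 5 members, and this median turned positive under some alternatives. Lef1, the DNA-binding partner of beta-catenin and itself a target, was the 1 member past the fold, at 46.8 and 68.1 CPM (0.54, 0.32 to 0.76). In Wnt-high AE it had 172 and 182 CPM (0.08). Ccnd1 stood at 289 and 272 CPM (-0.09), and Nkd1 was low in both libraries.

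Hypoxia genes lay mostly above 0. Of 20 measured members 16 lay above 0 and 4 below, beside 45.3% and 54.7% of all genes, with a median of 0.32 beside -0.02 for all genes, and their summed level was 1059 and 1267 CPM. Past the fold were 5 higher members, beside 2% of all genes, named after their values were seen: Slc2a3, Egln3, Ddit4 (9.74 and 16.3 CPM, 0.74), the vasodilator gene Adm (18.0 and 26.9 CPM, 0.58) and Ankrd37 (41.2 and 59.0 CPM, 0.52). P4ha2 (4.73 and 2.84 CPM, -0.73) and Vegfa (5.41 and 3.79 CPM, -0.51) were past it on the lower side, on 35 and 15 and on 40 and 20 UMIs, with intervals that include 0. The abundant members differed less, Slc2a1, the gene of GLUT1, having 277 and 345 CPM (0.32, 0.22 to 0.41), Higd1a 184 and 208 CPM (0.18) and Bnip3l 179.6 and 181 CPM (0.01). SP3-null cells had the higher summed level in Wnt-high AE (1269.5 and 1543 CPM), conflux AE (1502 and 2004 CPM) and Wnt-low VE (865 and 1052 CPM) too. Glycolysis genes had a median of 0.03 over 15 members, with Gapdh at 0.05, Pkm at 0.13 and Ldha, which makes lactate, at 889 and 1001 CPM (0.17). Ldhb had the lowest ratio, at 10.0 and 4.55 CPM (-1.14, -1.87 to -0.46).

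HOX genes, which set position along the body axis, lay mostly below 0. Of 16 measured members 15 lay below 0, beside 54.7% of all genes, with a median of -0.36, and the summed level was 281 and 218 CPM. Past the fold on the lower side were 4 members, beside 4.58% of all genes, namely Hoxa5 (16.8 and 8.34 CPM, -1.01, -1.54 to -0.50), Hoxa9 (25.02 and 15.9 CPM, -0.65), Hoxd8 (17.7 and 11.2 CPM, -0.66) and Hoxa3 (12.6 and 8.34 CPM, -0.59). The members with the most UMIs were Hoxb4, at 34.5 and 28.1 CPM (-0.30, -0.60 to 0.00), Hoxb7 (-0.33) and Hoxb8 (-0.14), and Hoxb5 (0.08) alone lay above 0. Hoxa9 was seen in 12.9% and 4.98% of thinned cells, or 26.5% and 16.1% before thinning, and in 42.1% and 36.9% of thinned IAC, so no class that lacks it was at hand as a background. The summed HOX level was also lower in Wnt-high AE (225 and 158 CPM) and conflux AE (311 and 229.9 CPM), and close in IAC (240.3 and 247 CPM).

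**Figure D5:**
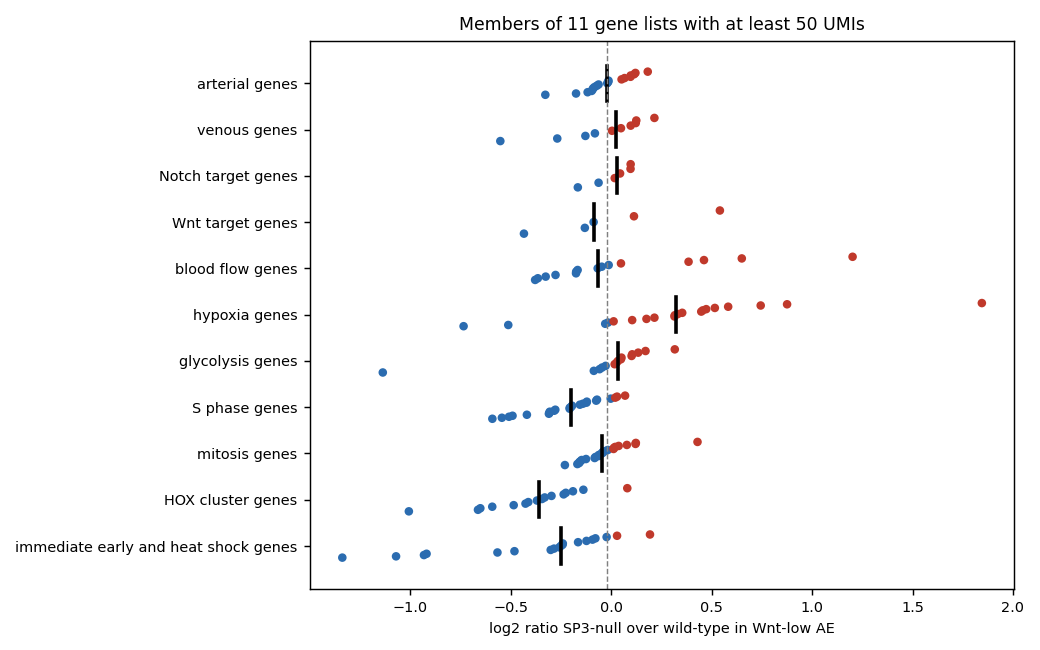
Log2 ratio of SP3-null over wild-type in Wnt-low AE for the members of 11 gene lists with at least 50 UMIs, 1 point per gene, red above 0 and blue below. Black bars are list medians and the dashed line is the median of all genes, -0.02. Hypoxia genes, with a median of 0.32, lie mostly above it, and HOX genes (-0.36), immediate early and heat shock genes (-0.25) and S phase genes (-0.20) mostly below.

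Genes of DNA replication lay mostly below 0 by a smaller amount. Of 24 S phase genes 21 lay below 0, beside 54.7% of all genes, with a median of -0.20, and 3 were past the fold, beside 4.58% of all genes, among them Chaf1b, a histone chaperone gene (35.4 and 23.5 CPM, -0.59), and Cdc6, which loads the replicative helicase (24.9 and 17.1 CPM, -0.54). The summed S phase level was 1544 and 1348 CPM (-0.20, -0.24 to -0.15). Among the most abundant members Mcm3 stood at -0.07 and Tyms at -0.12, beside a median of -0.02 for all genes. Mitosis genes had a median of -0.05 over 24 members, with Ube2c at 0.08, Birc5 at 0.01 and Top2a at -0.08, and Nusap1 was the highest (65.0 and 87.6 CPM, 0.43). Each cell weighted alike or thinned to equal depth, the mitosis median was -0.11 and -0.14.

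Immediate early and heat shock genes, which many stimuli induce rapidly, lay below 0 in 17 of 19 cases, beside 54.7% of all genes, with a median of -0.25. The 5 members past the fold, beside 4.58% of all genes, were Fosb (10.5 and 4.17 CPM, -1.34), Egr1 (21.9 and 10.4 CPM, -1.07), Fos (56.8 and 29.8 CPM, -0.93), Zfp36 (15.4 and 8.15 CPM, -0.92) and Hspa1a (25.8 and 17.4 CPM, -0.57). Fos UMIs sat in 104 wild-type and 52 SP3-null cells, and the 5% of cells with the most held 69.8% and 70.7% of them. Hspa8, the most abundant, differed by -0.12. The flow-responsive factor gene Klf2 was lower, at 235 and 187 CPM (-0.33, -0.44 to -0.21), as were Cyr61 (55.7 and 42.9 CPM, -0.38) and Klf6 (145 and 105.1 CPM, -0.47), whereas Cav1, the caveolin gene, was close (-0.05). Edn1 stood at 3.38 and 7.78 CPM (1.20, 0.45 to 1.98), on 25 and 41 UMIs. Over 15 blood flow genes the median was -0.07, with 5 above and 10 below 0, and over 16 SP and KLF factor genes, Sp3 included, it was -0.14, with 4 above and 12 below. Over all genes 45.3% lay above 0, so the split of the flow genes was near that of all genes. Intervals lay above 0 for 4 flow genes and below 0 for 4, beside 504 and 659 of the 6213 genes with at least 200 UMIs. Past the fold were 2 flow genes on the higher side and 0 on the lower, beside 2% and 4.58% of all genes. The summed flow level had a log2 ratio of -0.11 (-0.16 to -0.06).

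The summed levels of receptor pathway lists were slightly higher in the SP3-null library. The VEGF and TIE list summed to 2178 and 2342 CPM (0.10, 0.07 to 0.14), and most of this gain came from Flt1. Of its 16 members 9 lay above and 7 below 0, beside 45.3% and 54.7% of all genes, with a median of 0.05. Past the fold was 1 member on each side. Flt1, the gene of VEGF receptor 1, stood at 442 and 565 CPM (0.35, 0.28 to 0.43), Kdr, the gene of VEGF receptor 2, at 627 and 650.1 CPM (0.05), and the lymphatic growth factor gene Vegfc at 32.5 and 46.8 CPM (0.53, 0.27 to 0.79). The BMP and TGF-beta list summed to 1689 and 1841 CPM (0.12, 0.09 to 0.16). Its median was 0.11 over 15 members, of which 6 had intervals above 0 and 2 below, and 3 were past the fold, beside 2% of all genes. These were Id2, Smad6 (5.68 and 8.91 CPM) and Tmem100 (4.19 and 7.02 CPM), while Id3 stood at 743 and 815 CPM (0.13) and Smad5 at 38.8 and 31.1 CPM (-0.32). Among imprinted genes, 8 of 13 lay above 0, beside 45.3% of all genes, with H19 at 851 and 1056 CPM (0.31) and Peg3 at 241 and 175 CPM (-0.46, -0.58 to -0.35). Pan-endothelial genes had a median of 0.05 over 17 members, with Cdh5 at 757 and 767 CPM (0.02). The 13 mitochondrially encoded genes all lay below 0, with a median of -0.10, beside a lower mitochondrial share per cell.

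Lists of matrix, junction, guidance, cholesterol, oxidative phosphorylation and ribosomal protein genes had medians between -0.06 and 0.08. None of their members was past the fold, beside 2% of all 9355 genes on the higher and 4.58% on the lower side. With shares this low, a count of 0 in a short list says little. The collagen gene Col4a1 (-0.06) and the secreted matrix gene Sparc (-0.14) were the largest matrix members, and Fn1, the fibronectin gene, was the highest (143 and 170.3 CPM, 0.25).

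Markers of cells outside the endothelium were mostly sparse in Wnt-low AE in both libraries. Macrophage genes gave 6 and 0 UMIs in all, blood genes 57 and 28, epithelial and mesonephric genes 14 and 2, mesenchyme genes 20 and 10, pericyte and smooth muscle genes 48 and 9, and hepatic genes 42 and 26. Runx1, the defining gene of hemogenic cells, was seen in 1.27% and 0.332% of thinned cells, or 4.03% and 2.01% before thinning. Of the pericyte and smooth muscle UMIs 43 and 7 were Tagln (5.81 and 1.33 CPM, -2.13, -3.53 to -0.97). The neural list held Nes, which endothelium also expresses (152 and 155 CPM), and Stmn2, a stathmin gene (109 and 73.0 CPM, -0.58, -0.76 to -0.40). Lists of endocardial, lymphatic and germ cell genes summed higher, at 2309 and 1839, 654 and 423, and 578 and 488 UMIs. Most of these UMIs came from Hapln1 (244 and 269.7 CPM) and Npr3 among endocardial genes, from Flt4 (85.2 and 77.9 CPM), which is also a gene of the study's venous set, among lymphatic ones, and from Ifitm3 (74.4 and 89.1 CPM), an interferon-induced gene, among germ cell ones. The lymphatic master gene Prox1 gave 16 and 6 UMIs and the germ cell factor gene Pou5f1 19 and 13. Leaving out cells with blood, macrophage, neural, epithelial or mesenchymal UMIs other than Nes and Stmn2 kept 396 and 314 cells and gave 40 higher and 77 lower genes past the fold.

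Some genotype ratios differed between the 2 arterial branches. Over 6159 genes the ratio in Wnt-low AE minus that in Wnt-high AE had a median of 0.01, and the central 95% lay between -0.39 and 0.43. Cyp26b1, which degrades retinoic acid, stood at 24.2 and 26.4 CPM in Wnt-low AE (0.12) and at 89.8 and 43.0 CPM in Wnt-high AE (-1.06), a difference of 1.18 (0.81 to 1.56). Prpf3 (0.88) and Il6st, the gene of the shared receptor chain gp130 (0.80), also had higher ratios in Wnt-low AE, and Lsm11 (-0.82) and Capg (-0.78) lower ones. Intervals of these differences cover counting error, and with 1 library per genotype no difference between branches was tested.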

How the data were processed

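Single-cell transcriptomes of 1 wild-type and 1 SP3-null library were analysed. The deposited counts are UMIs per gene and cell, which the authors obtained with Cell Ranger (version not given in the sources used here) on mm10 (GRCm38, per the submitters' processing notes), after dropping low-quality barcodes and contaminating cell types. The authors also deposited, for each cell, its class, its library and the fraction of mitochondrial UMIs. Cells were classed by a vote of their nearest neighbours on a reference map and by an arterial against venous module score, so classes depend on the expression described here. Wnt-low and Wnt-high AE together hold 939 wild-type and 922 SP3-null cells in this table, far more than the study lists as arterial. No source explains the gap, and shares are those of the deposited classes. No doublet caller was run here, and doublets remain in all values.

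UMIs were summed per class and library and divided by their total. With 1 library per genotype there is no test, and log2 ratios carry exact conditional intervals at the 95% level, Poisson intervals go with levels and exact binomial or Newcombe intervals with shares. UMIs of a cell are not independent, so these are lower limits of the error. Ratios between genotypes used genes whose UMIs in the class came to 200 or more, and a log2 ratio of 0.5 in size, and comparisons of classes a log2 ratio of 1 in both libraries. Members of lists needed 50 UMIs. Cells were thinned to 5000 UMIs for shares of cells. Interval coverage was tested on simulated data. Tools were Python 3.11.15, numpy 2.4.6, scipy 1.17.1, pandas 2.3.3, R 4.3.3, edgeR 4.0.16 and DESeq2 1.42.0, the last 2 for scaling factors only.

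The class and the gene lists were chosen with earlier results of these data known. Named are the arterial markers, Sp3 and Sp1, the 12 highest and 12 lowest ratios of each comparison, of each list the 3 members with the most UMIs and its highest and lowest ratio, the 15 most variable genes and the 6 largest differences between arterial branches in each direction. Other genes named as members of a list were chosen after their values were seen. Some genes that these rules name are not reported here. Alternatives changed the scaling, the UMI minimum, the weight and depth of cells, and left out deep cells or cells with markers of other types. Leaving out the cells richest in erythroid UMIs or in UMIs of the gene, and deep cells for the variation, was chosen after seeing the data.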

Additional observations from a re-analysis of the deposited data

Results flagged for a closer look

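For 7 of the 12 genes whose genotype ratio differed most between the arterial branches, the ratio of SP3-null over wild-type pointed one way in Wnt-low AE and the other way in Wnt-high AE, with both counting intervals off 0. The 12 genes were picked by the size of that difference, which favours opposite directions. How many of all 6159 compared genes had opposite directions was not counted. The interval of the difference lay above 0 for 365 of the 6159 and below 0 for 267. The difference between the branches was not tested, as each genotype is 1 library. The log2 ratio in Wnt-low AE minus that in Wnt-high AE was 1.13 for the long non-coding RNA gene Lockd (0.62 and -0.51), 0.80 for Mcf2l (0.53 and -0.28) and 0.79 for Gpx3, a secreted glutathione peroxidase gene (0.38 and -0.41). It was -3.04 for Hba-x and -2.16 for Hbb-y, whose UMIs sat in few cells. It was -1.18 for the heat shock gene Hspa1a (-0.57 and 0.62) and -0.98 for Stmn2 (-0.58 and 0.40).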

How the results depend on the processing

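No paired analysis was possible because each genotype is 1 library. Against 34 higher and 84 lower genes in the SP3-null library, the counts were 95 and 236 at a minimum of 100 UMIs, 9 and 16 at 500 UMIs, 65 and 133 with each cell weighted alike, and 181 and 311 with cells thinned to 5000 UMIs. At 500 UMIs the class comparisons gave 33 higher and 104 lower genes against Wnt-high AE, 51 and 15 against Wnt-low VE, and 79 and 105 against conflux AE. The stricter minimum tests fewer genes, and the cause of the other shifts was not tested. The arterial median was 0.035 with cells weighted alike, 0.048 in thinned cells and -0.079 without cells bearing markers of other types. The Wnt target median was 0.23 at 200 UMIs, where 2 members remained, and 0.067 without the marker-bearing cells. The hypoxia median was 0.25 in thinned cells, and the mitosis median -0.11 with cells weighted alike and -0.14 in thinned cells. The share of Wnt-low AE differed by -9.27 points among arterial cells. Of the ratios of named genes 248 were within the error under an alternative, 13 moved and 0 reversed, among them those without the cells richest in erythroid UMIs or in UMIs of the gene, which were chosen after seeing the data. Depth limits genes with few UMIs, such as Notch3, whose interval on 43 and 18 UMIs ran from -1.65 to 0.06.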
